A study of Mus musculus with 45 samples.

Results

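The kappa light chain variable (V) segments of the mouse were followed through the culture of splenic B cells into antibody-secreting cells. They were taken as every row of the deposited tables with the gene type IG_V_gene and a symbol beginning with Igkv, which gave 100 genes of 28196. RNA-seq libraries numbered 45, in 15 groups of 3, and came from C57BL/6 mice that were either wild type or carried a deletion of exon 1A of Prdm1 (Prdm1 Δex1A, written dEx1A here). The dEx1A cells were grown in LPS, TLR or BCR culture and sampled on days 4 and 7. The wild type groups were LPS cultures at days 4 and 7, TLR and BCR cultures at days 4, 7 and 10, and B cells at day 0. Per the labels, irradiated L cells expressing CD40L served as feeders in TLR and BCR culture, together with IL-4 and IL-5. The stimulus was LPS in TLR culture and F(ab')2 anti-IgM/IgG in BCR culture. From day 4 both had IL-6, APRIL, amino acids and lipids. The labels do not say what the LPS culture contained. Day 4 and day 7 samples are labelled plasmablasts, and day 10 samples plasma cells. The labels give 9-week females for the dEx1A groups and wild type LPS and 7-week males for the other wild type groups, so a genotype difference in TLR or BCR cultures cannot be told apart from sex and age if the labels hold. The protocol text instead describes the mice as matched for both, and the sources used here do not settle which is right. The LPS genotype comparisons carry the same labelled sex and age. The labels do not say that the 3 libraries of a group came from separate mice, so p-values measure the spread between these libraries, which may be technical.

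A kappa light chain is encoded by a V segment that a developing B cell joins to 1 of a few J segments next to the constant gene Igkc. Each B cell usually keeps 1 productive light chain, so in a mixed population the reads on a V segment follow both how many cells chose it and how much light chain RNA each of those cells makes. In bulk RNA these cannot be told apart. Naive B cells carry light chain RNA at a modest level for the membrane receptor, and antibody-secreting cells make very large amounts of it for secretion. The V exon encodes the framework of the domain and its antigen-contacting loops, of which CDR1 and CDR2 are wholly germline and CDR3 begins at the 3′ end of the V segment. The Prdm1 product Blimp-1 is the main repressor that drives plasma cell fate, and exon 1A is one of its alternative first exons.

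The 100 segments lay on chromosome 6 between positions 67555497 and 70704177 (GRCm38), upstream of Igkj1 to Igkj5 at 70722562 to 70723927 and of Igkc at 70726435 to 70726966. The segments belonged to 20 families, with 38 segments on the plus strand and 62 on the minus strand, and Igkj and Igkc were on the plus strand. A segment in the opposite orientation to Igkj joins by inversion of the DNA between them, and one in the same orientation by its deletion. The V exon measured 293 to 322 bases with a median of 303. The nearest other segment was between 65.6% and 99.0% identical over the V exon (median 94.2%), and 12 segments had a neighbour at 97% or more, where reads of 76 bases may be divided between copies. The exon from the codon of the first conserved cysteine to its 3′ end is shown for 6 segments, because most of the shifts in usage described here rest on them. Capitals mark the CDR1 codons and the germline start of CDR3. The sequences are the sense strand of the GENCODE M21 transcripts.
Igkv8-21: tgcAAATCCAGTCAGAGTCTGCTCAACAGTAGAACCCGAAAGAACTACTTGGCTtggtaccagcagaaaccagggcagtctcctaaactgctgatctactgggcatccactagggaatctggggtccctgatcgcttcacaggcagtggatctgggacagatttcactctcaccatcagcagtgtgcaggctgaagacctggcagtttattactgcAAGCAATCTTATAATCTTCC
Igkv1-117: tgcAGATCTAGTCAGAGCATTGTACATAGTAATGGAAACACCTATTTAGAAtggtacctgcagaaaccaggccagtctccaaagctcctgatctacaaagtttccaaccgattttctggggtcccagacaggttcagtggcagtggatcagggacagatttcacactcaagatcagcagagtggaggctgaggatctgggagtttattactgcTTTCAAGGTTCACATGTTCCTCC
Igkv1-110: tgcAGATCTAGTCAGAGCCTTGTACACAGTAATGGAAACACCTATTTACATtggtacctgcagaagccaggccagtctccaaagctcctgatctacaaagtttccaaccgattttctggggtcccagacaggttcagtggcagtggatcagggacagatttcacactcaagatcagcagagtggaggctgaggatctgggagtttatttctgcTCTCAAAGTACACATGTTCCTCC
Igkv1-135: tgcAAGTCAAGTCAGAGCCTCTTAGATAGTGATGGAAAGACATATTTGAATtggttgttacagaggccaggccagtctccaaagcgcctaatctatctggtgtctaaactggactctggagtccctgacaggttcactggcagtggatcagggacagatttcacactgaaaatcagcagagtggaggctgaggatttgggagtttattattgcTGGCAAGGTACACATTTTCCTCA
Igkv10-96: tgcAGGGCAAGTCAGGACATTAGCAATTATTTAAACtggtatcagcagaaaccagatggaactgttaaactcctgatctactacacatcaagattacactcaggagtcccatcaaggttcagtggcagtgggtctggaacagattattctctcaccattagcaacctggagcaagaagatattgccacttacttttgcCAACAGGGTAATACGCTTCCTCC
Igkv19-93: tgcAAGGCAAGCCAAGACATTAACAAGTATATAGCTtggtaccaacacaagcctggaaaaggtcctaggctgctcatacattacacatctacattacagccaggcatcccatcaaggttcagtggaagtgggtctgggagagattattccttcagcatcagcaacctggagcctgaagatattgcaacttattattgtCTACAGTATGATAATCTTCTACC
CDR1 had 17 codons in Igkv8-21 (chr6:70314895-70315130, minus strand) and 16 in Igkv1-117 (chr6:68121592-68121827, plus), Igkv1-110 (chr6:68271032-68271267, plus) and Igkv1-135 (chr6:67610273-67610508, plus). It had 11 in Igkv10-96 (chr6:68631963-68632183, minus) and Igkv19-93 (chr6:68736297-68736517, minus). The V exons of Igkv1-117 and Igkv1-110 were 96.8% identical, so the division of reads between these 2 segments is uncertain and their sum is given as well. Igkv8-21 had at most 70.4% identity with the other 5 segments shown, and its nearest segment, Igkv8-19, was 92.1% identical.

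Levels are given on the deposited log2 scale, on which a count of 0 reads 3.04, and low values are compressed towards that floor. Reads per gene were recovered from those values, and the libraries held 15.1 to 35.5 M reads on genes with a median of 23.2 M. Of the libraries, 15 held fewer than 20 M reads, namely wild type LPS at both days and dEx1A at day 7 in each culture. Their GC offset, the deviation of GC-rich less GC-poor genes from the mean library, was 0.66 to 1.44, against -1.55 to 0.51 in the other 30. Gene-level Prdm1, the targeted gene, does not measure exon 1A apart from the rest and so does not check the deletion. At day 7 it read 11.10 to 11.32 in dEx1A and 12.40 to 12.77 in wild type LPS cultures, 11.72 to 11.90 and 13.04 to 13.43 in TLR cultures, and 10.02 to 10.80 and 12.33 to 12.56 in BCR cultures. At day 4 it read 9.60 to 10.01 in dEx1A and 12.34 to 12.68 in wild type LPS cultures, 9.71 to 10.61 and 9.66 to 9.86 in TLR cultures, and 7.27 to 8.82 and 9.32 to 10.23 in BCR cultures. The macrophage markers Lyz2, Cst3, Csf1r, Adgre1, Cd68 and Ctsl summed to 801.3 to 7804 RPM (reads scaled to the library total) in wild type BCR cultures at day 10 and to 144 to 353 RPM in those at day 7, with all 6 above 0. The fibroblast markers were Col1a1, Col1a2, Col3a1, Sparc, Thy1 and Dcn, which the L cells could carry. They summed to 274 to 422 RPM in dEx1A BCR cultures at day 7, with 1 or 2 of the 6 at 0. In wild type cultures at days 7 and 10 they summed to at most 26.5 RPM. At day 4 they summed to 78.3 to 183 RPM in wild type TLR and 128 to 263 RPM in wild type BCR cultures. In dEx1A cultures at day 4 they summed to 74.6 to 157 RPM in TLR and 165 to 222 RPM in BCR culture. The part of feeder RNA in the day 7 less day 4 differences was not tested. B cell markers were detected in every library, with all 7 of the list above 0.

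Kappa V RNA took under 1% of the reads in B cells at day 0 and in TLR and BCR cultures at day 4, and several percent in wild type cultures at days 7 and 10. At day 0 the segments together took 0.202, 0.225 and 0.237% of the reads in the 3 libraries. In wild type TLR cultures they took 0.332, 0.273 and 0.358% at day 4, 7.71, 6.70 and 6.93% at day 7, and 8.93, 10.4 and 12.4% at day 10. In wild type BCR cultures the shares were 0.208, 0.162 and 0.257% at day 4, 4.55, 4.19 and 4.56% at day 7, and 6.07, 4.84 and 11.4% at day 10. In BCR culture the day 4 libraries overlapped those of day 0 (summed log2 difference -0.10, pooled SD 0.31). In TLR culture every day 4 library lay above those of day 0, and the summed level was 1.44-fold higher (log2 0.52, pooled SD 0.20). In both cultures every day 7 library lay above every day 4 library. Wild type LPS cultures differed in timing, with 1.58, 1.53 and 1.76% at day 4 and 3.63, 3.95 and 4.50% at day 7.

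**Figure D1:**
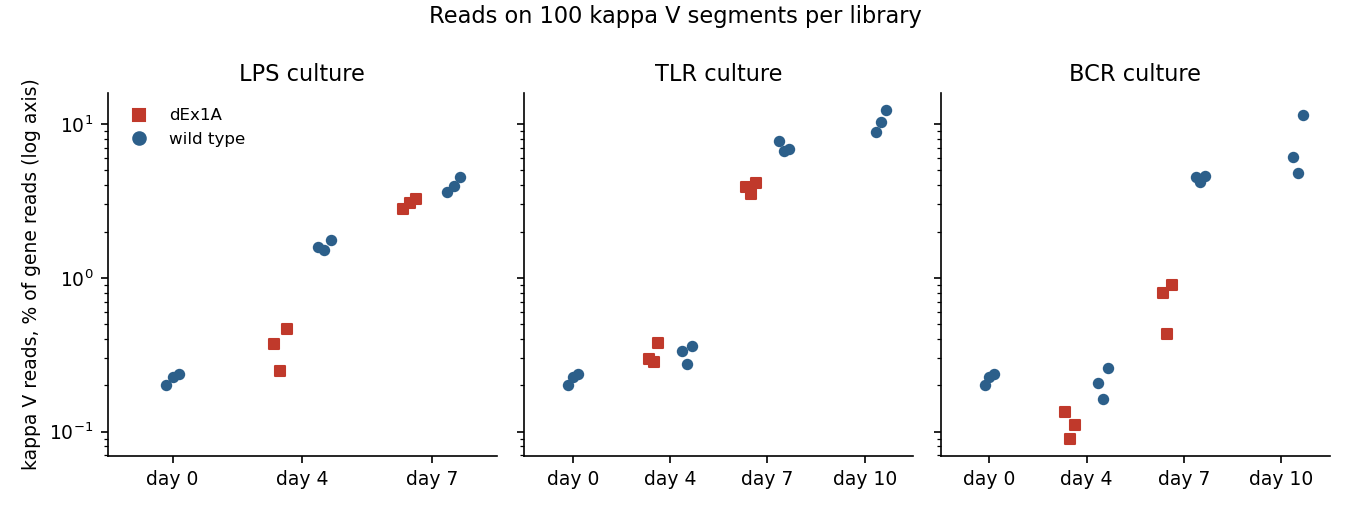
Reads on the 100 kappa V segments as a percentage of all gene reads, per library, on a log axis, by day and culture, with dEx1A libraries as squares left of wild type circles. The 3 wild type day 0 libraries are the same in each panel and lie at 0.202 to 0.237%. The dEx1A LPS libraries at day 4, at 0.249 to 0.465%, lie below the wild type LPS libraries, at 1.53 to 1.76%.

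In wild type TLR cultures the segments rose together between day 4 and day 7. All 99 segments that passed the filter on low values in the wild type table were higher at day 7 (limma, Benjamini-Hochberg adjusted p below 0.05), where 17.7% of all genes tested were higher and 18.6% lower. Their median log2 difference was 5.19, beside -0.06 over all genes. The summed kappa V level was 41.2-fold higher, a log2 difference of 5.36, which was 4.48 when scaled to total reads. The steepest rise was in Igkv4-57-1, which read 13.68, 13.64 and 13.40 at day 7 and 7.70, 7.25 and 7.50 at day 4 (difference 6.09, SE 0.28, adjusted p = 6.3e-11). Igkv4-63 and Igkv13-84 rose by nearly as much, by 5.95 (SE 0.48) and 5.95 (SE 0.51). That the 2 groups did not overlap was a condition for naming these 3 segments, and so is not a result. The smallest difference among the tested segments was 1.06. Scaled to total reads instead, the median of all genes moved to -0.58 in this comparison and that of the segments to 4.36, and 99 segments were still called.

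In wild type BCR cultures 94 of 99 tested segments were higher at day 7 than at day 4, against 15.3% of all genes, and none was lower, against 15.2%, with a median difference of 4.62 beside 0.00 over all genes. Igkv2-112 showed the largest rise, reading 13.57, 12.65 and 13.55 at day 7 and 7.39, 6.79 and 8.18 at day 4 (difference 5.80, SE 0.48, adjusted p = 5.2e-08). Igkv4-57-1 followed at 5.54 (SE 0.28) and Igkv4-61 at 5.48 (SE 0.38). The summed level was 29.4-fold higher at day 7.

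The first 4 days moved few segments in TLR and BCR cultures. At day 4 of TLR culture 6 segments were higher than at day 0, against 24.9% of all genes, and none was lower at an adjusted p below 0.05, against 23.5%. At an unadjusted p below 0.05 the number changed was 10. Igkv14-126 read 9.12, 9.25 and 9.23 at day 4 and 7.67, 7.91 and 7.87 at day 0 (difference 1.38, SE 0.29, adjusted p = 0.00066), and Igkv8-30 and Igkv1-110 were higher by 1.26 (SE 0.42) and 0.93 (SE 0.32). The 6 became 27 higher and 2 lower when the 2 groups were fitted alone, 13 higher when scaled to total reads, 1 without day 0 replicate 1 or day 4 replicate 3, 2 without day 4 replicate 1, and 3 without day 0 replicate 2. At day 4 of BCR culture none was higher, against 26.1% of all genes, and 2 were lower, against 24.5%, with 4 at an unadjusted p below 0.05. These were Igkv12-98, at 7.17, 6.64 and 6.75 on day 4 and 7.54, 7.62 and 7.75 on day 0, and Igkv3-2. With the 2 groups alone 1 was higher and 14 were lower, with voom 1 was lower, without day 0 replicate 2 or day 4 replicate 3 only 1 was called, and without day 0 replicate 3 none.

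LPS cultures took the step earlier. Of 100 segments tested in the table with both genotypes, 84 were higher at day 4 of wild type LPS culture than at day 0, against 27.3% of all genes, and none was lower, against 30.8%. Their median difference was 2.64, beside -0.01 over all genes. Igkv8-21 stood apart, reading 14.30, 13.81 and 14.26 at day 4 and 8.13, 8.10 and 8.18 at day 0 (difference 5.99, SE 0.30, adjusted p = 5.7e-17). The next were Igkv4-63 (3.77, SE 0.96) and Igkv4-59 (3.72, SE 0.30). Depth, GC offset, sex and age differ between the libraries of this step, and their part in it was not tested beyond a GC correction, under which 84 segments were higher. From day 4 to day 7, 37 segments were higher in wild type LPS culture, against 4.75% of all genes, and none was lower, against 3.65%, with a median difference of 1.13 beside 0.00. Igkv8-21 led again, at 17.30, 16.45 and 17.53 on day 7 (difference 2.97, SE 0.30, adjusted p = 7.5e-08), followed by Igkv2-112 (2.77, SE 0.61) and Igkv8-27 (2.26, SE 0.39). Without day 7 replicate 3, 22 segments were called.

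The last step, to day 10, was smaller and less certain. In TLR cultures 37 of 99 segments were higher at day 10 than at day 7, against 3.51% of all genes, and 1 was lower, against 4.69%. The median difference was 1.16 beside 0.01 over all genes, and the summed level was 2.20-fold higher (log2 1.14, or 0.56 scaled to total reads). The macrophage markers summed to 180 to 1466 RPM at day 10 and to 83.4 to 139 RPM at day 7, and their part in the result was not tested. Igkv6-29 read 9.33, 10.44 and 9.67 at day 10 and 7.56, 7.40 and 7.53 at day 7 (difference 2.32, SE 0.41, adjusted p = 0.0019), on 1622 and 458 reads. Igkv3-4 and Igkv8-21 were also higher (1.83, SE 0.43, and 1.72, SE 0.44), while Igkv10-95 fell by 1.22 (SE 0.32, adjusted p = 0.024). The 38 calls became 17 when scaled to total reads, 61 with the 2 groups alone, and 20, 20 and 11 without day 7 replicate 1, 2 or 3, and 21 without day 10 replicate 2 or 3.

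In BCR cultures 33 segments were higher at day 10 than at day 7, against 10.8% of all genes, and 2 were lower, against 5.91%, with a median difference of 0.86 beside 0.02. Igkv14-130 read 11.31, 11.67 and 13.12 at day 10 and 8.98, 10.35 and 10.55 at day 7 (difference 2.07, SE 0.42, adjusted p = 0.0029). Igkv4-91 and Igkv5-45 were higher by 1.67 (SE 0.29) and 1.65 (SE 0.47), and Igkv10-95 fell by 1.32 (SE 0.32). The other lower segment, Igkv20-101-2 (-1.66), is named after its value was seen. The 3 day 10 libraries were far apart: replicate 3, with 11.4% of reads on kappa V, had 801.3 RPM on the macrophage markers, and replicates 1 and 2, with 6.07 and 4.84%, had 7029 and 7804 RPM. The part of those cells in the result was not tested. None was called with the 2 groups fitted alone, where 35 were called in the full fit. The calls numbered 65 without day 10 replicate 2, 18 without day 10 replicate 3, and 19 and 20 without day 7 replicates 1 and 2.

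**Figure D2:**
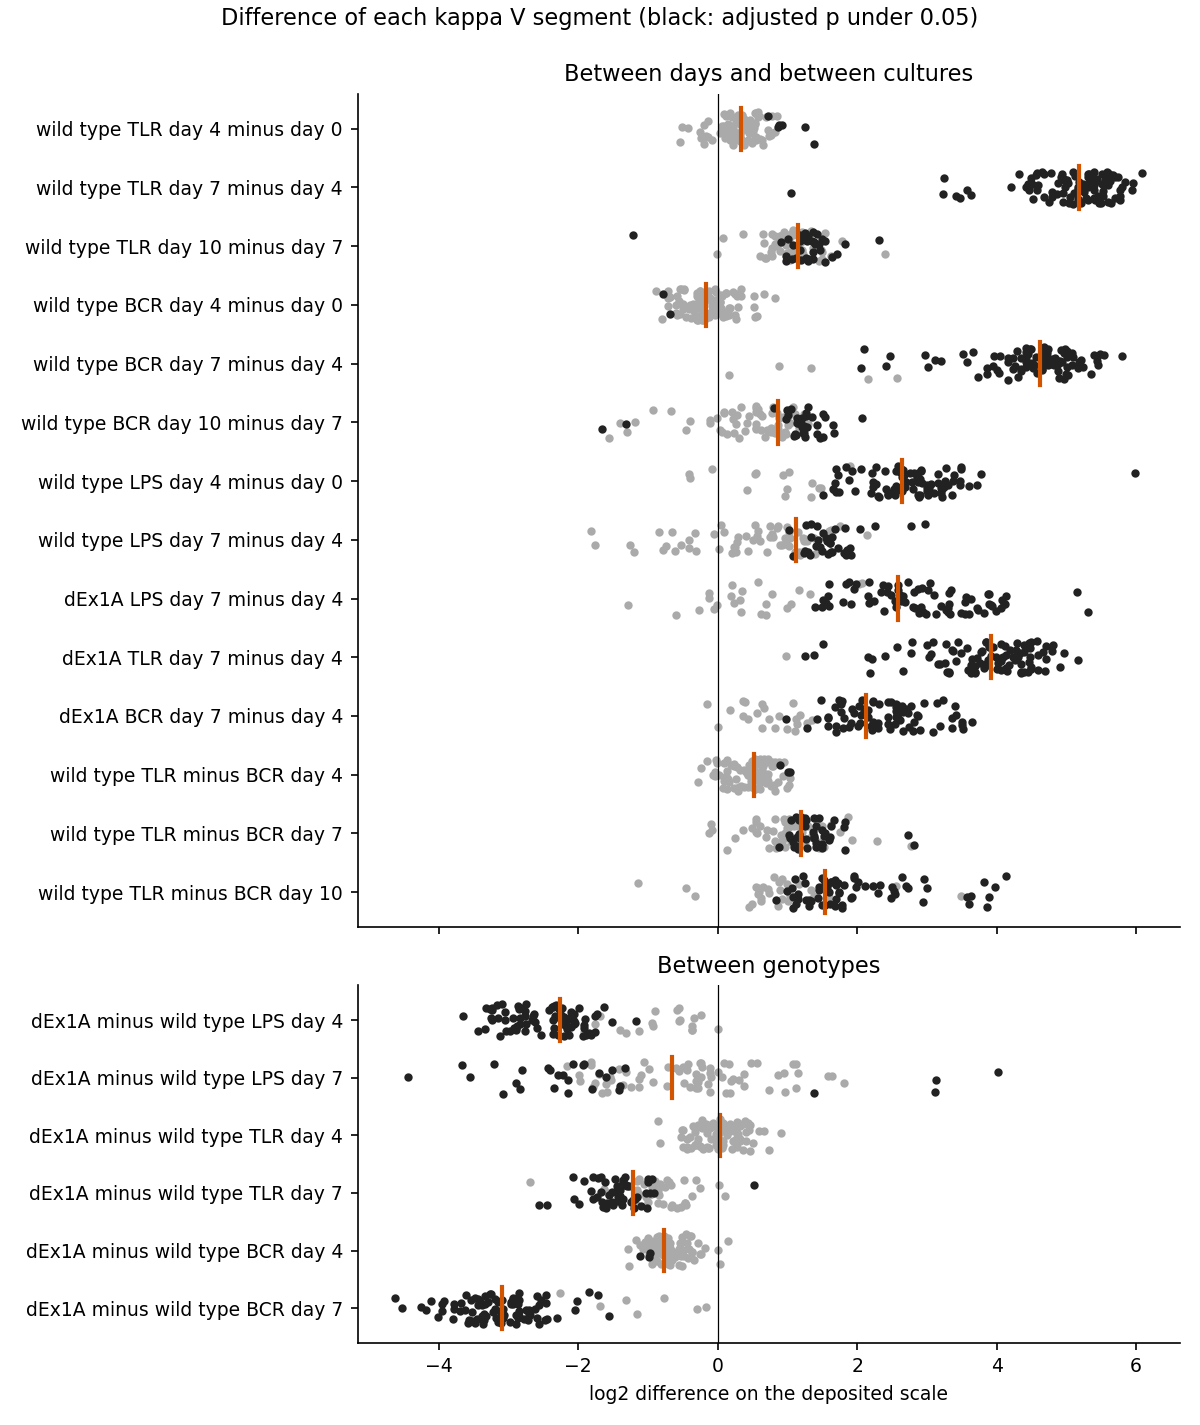
Log2 difference of every tested kappa V segment in 20 comparisons, 1 point per segment, black where the adjusted p was below 0.05 and grey otherwise, with the median as an orange bar. The day 7 less day 4 medians reach 5.19 in wild type TLR and 4.62 in wild type BCR cultures, and the dEx1A less wild type medians lie between -3.09 and 0.04.

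Wild type TLR cultures carried more kappa V RNA than BCR cultures at day 7, and at day 10 the shares of reads overlapped. At day 4, 3 segments were higher in TLR than in BCR cultures, against 4.30% of all genes, none was lower, against 3.27%, and 18 differed at an unadjusted p below 0.05. The count of higher segments lies near the share over all genes and is not read as a result about the segments. Igkv14-126 was higher by 1.04 (SE 0.29), Igkv3-2 by 1.01 (SE 0.22) and Igkv6-15 by 0.89 (SE 0.26). Same-numbered libraries deviated together here, and with the replicate number as a block in a fit of the 2 groups 47 segments were higher. The 3 became 0 without TLR replicate 1 and 1 without TLR replicate 3, BCR replicate 1 or BCR replicate 2. At day 7, 43 were higher, against 3.77% of all genes, and none was lower, against 2.50%, with a median difference of 1.20 beside -0.04, and the summed level was 2.16-fold higher. Igkv8-21 had the largest difference, reading 14.51, 14.88 and 14.40 in TLR cultures and 12.61, 11.35 and 11.37 in BCR cultures (difference 2.82, SE 0.44, adjusted p = 0.0011). Igkv6-29 (2.73, SE 0.41) and Igkv14-130 (1.82, SE 0.42) were the next among the segments that passed the test, the last tied with Igkv3-7 (1.82, SE 0.38). Igkv3-3 (2.77) and Igkv8-18 (2.28) differed by as much or more and did not pass. Scaled to total reads the 43 became 21, and to reads outside immunoglobulin genes 22. The 43 became 9, 20 and 20 without TLR replicate 1, 2 or 3, and 23, 13 and 27 without BCR replicate 1, 2 or 3.

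At day 10, 69 segments were higher in TLR than in BCR cultures, against 4.29% of all genes, and none was lower, against 10.1%, with a median difference of 1.55 beside -0.04. The shares of reads were 8.93, 10.4 and 12.4% in TLR and 6.07, 4.84 and 11.4% in BCR cultures, and the summed level differed by 1.21 (log2), or 0.59 scaled to total reads, beside a pooled SD of 0.68. Igkv8-18 read 11.16, 11.67 and 11.68 in TLR cultures and 9.54, 4.68 and 7.89 in BCR cultures (difference 4.13, SE 0.72, adjusted p = 0.0020). Igkv8-21 was close behind at 16.30, 16.35 and 16.29 in TLR and 12.89, 10.78 and 13.33 in BCR cultures (3.98, SE 0.44), and Igkv18-36 differed by 3.89 (SE 0.69) on 1023 and 93 reads. With the 2 groups alone none was called, with or without the replicate block, which the same-numbered libraries call for here too. The count was 38 without BCR replicate 2 and 43 without TLR replicate 3. The macrophage markers summed to 180, 1466 and 274 RPM in these TLR libraries and to 7029, 7804 and 801.3 RPM in the BCR libraries, and their part in the result was not tested.

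Kappa V RNA was lower in dEx1A than in wild type cells in LPS culture at day 4 and in TLR and BCR culture at day 7. In LPS cultures at day 4 the share of reads was 0.372, 0.249 and 0.465% in dEx1A and 1.58, 1.53 and 1.76% in wild type, and the summed level was 4.98-fold lower. Of 100 segments 80 were lower, against 11.8% of all genes, and none was higher, against 12.6%, with a median difference of -2.26 beside 0.00. Igkv4-72 read 8.51, 8.19 and 8.60 in dEx1A and 11.86, 12.09 and 12.30 in wild type (difference -3.65, SE 0.29, adjusted p = 5.4e-11). Igkv13-85 and Igkv13-84 fell by 3.43 (SE 0.42) and 3.33 (SE 0.35). At this day the wild type libraries had the lower depth and the higher GC offset, and after a GC correction 82 were lower. The plasma cell markers Sdc1, Jchain, Xbp1, Prdm1, Tnfrsf17 and Slamf7 summed to 804 to 1681 RPM in dEx1A and to 5696 to 5969 RPM in wild type. Jchain, at a mean of 16.30 in these wild type libraries, carried most of their sum, and Prdm1 is the targeted gene. The sum therefore does not show a fall of each marker. The part of cell make-up in the difference was not tested.

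At day 7 of LPS culture the genotypes were closer as a whole, and single segments varied more between libraries. The median SD of a segment was 1.09 in dEx1A and 0.65 in wild type, against 0.50 and 0.30 at day 4. The share was 2.81, 3.055 and 3.28% in dEx1A and 3.63, 3.95 and 4.50% in wild type. Of the segments 25 were lower, against 3.78% of all genes, and 4 were higher, against 3.30%, with a median of -0.65 beside 0.00. The count of higher segments lies near the share over all genes. The lower ones included Igkv3-10, at 8.59, 6.94 and 9.65 in dEx1A and 12.28, 13.19 and 13.02 in wild type (difference -4.44, SE 0.40, adjusted p = 9.8e-10), and its family members Igkv3-2 (-3.66, SE 0.54) and Igkv3-12 (-3.55, SE 0.62). Among the higher ones Igkv8-34 read 9.29, 8.86 and 12.59 in dEx1A and 5.93, 8.82 and 3.92 in wild type (difference 4.02, SE 0.81, adjusted p = 0.00095). Igkv1-122 was higher by 3.14 (SE 0.81) and Igkv7-33 by 3.11 (SE 0.64), the last on 565 reads in dEx1A and 8 in wild type. Fitted with these 2 groups alone, 6 segments were lower and none was higher, and the calls of these 6 named segments were lost.

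In TLR cultures no segment differed between genotypes at day 4 (limma, none higher against 4.08% of all genes and none lower against 3.14%, 2 at an unadjusted p below 0.05, and none with voom). At day 7 the share was 3.92, 3.53 and 4.16% in dEx1A and 7.71, 6.70 and 6.93% in wild type, with no overlap. Then 53 were lower, against 28.7% of all genes, and 1 was higher, against 26.2%, with a median of -1.22 beside -0.04. Igkv5-37 was lower by 2.57 (SE 0.86), and Igkv14-130 read 9.37, 9.10 and 9.53 in dEx1A and 12.13, 11.78 and 11.44 in wild type (difference -2.45, SE 0.53, adjusted p = 0.00026). Igkv13-84 fell by 2.08 (SE 0.35). The single higher segment, Igkv1-131, rested on 15 reads in dEx1A and 6 in wild type. The dEx1A libraries of this comparison have the higher GC offset, and 43 were lower after a GC correction. The plasma cell markers summed to 14074 to 15386 RPM in dEx1A and to 35405 to 52212 RPM in wild type, and the fibroblast markers to 21.6 to 23.6 RPM in dEx1A and to 1.45 to 3.52 RPM in wild type. Their part in the difference was not tested. Jchain, at a mean of 20.15 in the wild type libraries, carried most of their plasma cell sum.

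The BCR cultures showed the widest genotype difference. At day 4, 3 segments were lower in dEx1A, against 0.669% of all genes, and none was higher, against 1.19%, although 38 differed at an unadjusted p below 0.05 and the median was -0.77. Igkv12-46 was lower by 1.11 (SE 0.19), Igkv6-23 by 0.98 (SE 0.22) and Igkv6-15 by 0.96 (SE 0.25). The 3 became 0 with the 2 groups alone, 7 with a replicate block and 1 without dEx1A replicate 2 or 3 or wild type replicate 1 or 3. At day 7 the share was 0.794, 0.430 and 0.894% in dEx1A and 4.55, 4.19 and 4.56% in wild type, and the summed level was 8.31-fold lower. Of 100 segments 93 were lower, against 25.0% of all genes, and none was higher, against 25.8%, with a median of -3.09 beside 0.00. Igkv14-126 read 8.69, 7.42 and 9.32 in dEx1A and 12.55, 12.98 and 12.66 in wild type (difference -4.25, SE 0.51, adjusted p = 6.9e-08). Igkv7-33 (-4.63, SE 0.64) and Igkv8-34 (-4.53, SE 0.81) had the largest differences, on 40 and 257 dEx1A reads. Fibroblast markers summed to 274 to 422 RPM in these dEx1A libraries and to 15.8 to 20.3 in the wild type ones, macrophage markers to 222 to 1276 and to 144 to 353, and the 6 plasma cell markers to 2574 to 4583 and to 19249 to 24154. The part of these cells in the difference was not tested. Jchain, at a mean of 18.73 in the wild type libraries, carried most of their plasma cell sum. The dEx1A BCR libraries of day 7 held fewer than 20 M reads and the wild type ones more. GC offsets were 0.67 to 1.37 in these dEx1A libraries and -0.93 to 0.33 in the wild type ones. The part of depth and GC offset was not tested beyond a GC correction.

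Kappa V RNA also rose with time in dEx1A cells. From day 4 to day 7, 99 of 100 segments were higher in TLR culture, against 29.3% of all genes (median 3.92 beside -0.05), 76 in LPS culture, against 16.3% (median 2.58 beside 0.00), and 78 in BCR culture, against 26.2% (median 2.13 beside -0.04). None was lower in any of the 3, against 32.8%, 17.8% and 27.7% of all genes in TLR, LPS and BCR culture. The summed level was higher by 17.8-fold, 11.2-fold and 6.21-fold in these 3 cultures. In TLR culture Igkv4-58, Igkv4-61 and Igkv4-68 had the largest rises, of 5.16 (SE 0.62), 4.97 (SE 0.44) and 4.91 (SE 0.38). In LPS culture Igkv8-34 was higher by 5.31 (SE 0.81), Igkv4-61 by 5.15 (SE 0.44) and Igkv1-117 by 4.13 (SE 0.30). Igkv1-117 read 16.51, 17.33 and 16.72 at day 7 and 12.96, 12.16 and 13.05 at day 4. In BCR culture Igkv2-112, Igkv4-58 and Igkv4-57-1 were higher by 3.64 (SE 0.61), 3.51 (SE 0.62) and 3.51 (SE 0.36). The LPS libraries paired by number at these 2 days, and the blocked fit of the 2 groups called 48 higher and 1 lower. Fitted alone without the block, they gave 51 higher and 1 lower. Day went with depth and GC offset in all 3 dEx1A cultures. The dEx1A libraries held 15.1 to 19.6 M reads at day 7 and 23.2 to 30.1 M at day 4. Their GC offsets were 0.66 to 1.44 at day 7 and -1.55 to 0.23 at day 4. The part of depth and GC offset in these rises was not tested beyond a GC correction.

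Tested directly, the genotype difference changed between day 4 and day 7 in BCR and LPS culture, in opposite directions. In BCR culture 70 segments had a lower difference at day 7, against 17.5% of all genes, and none a higher one, against 16.4%, with a median change of -2.26 beside -0.04. In TLR culture 32 were lower, against 25.1%, and none higher, against 24.3%, with a median of -1.26 beside -0.04. The TLR count of lower segments lies near the share over all genes and is not read as a result about the segments. In LPS culture 31 were higher, against 3.30%, and none lower, against 2.18%, with a median of 1.505 beside 0.00. With the groups of the comparison alone the TLR count was 77 and the LPS count 16. The TLR count was 18 with a GC correction, 19 when scaled to total reads, and 21 without dEx1A day 4 replicate 3, dEx1A day 7 replicate 2 or wild type day 4 replicate 2. In BCR culture only the dEx1A day 7 libraries held fewer than 20 M reads, with GC offsets of 0.67 to 1.37. In LPS culture only the dEx1A day 4 libraries held more, with GC offsets of -0.63 to 0.23. The part of depth and GC offset was not tested beyond a GC correction, and that of feeder RNA in BCR culture was not tested.

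Beyond the total, the evenness of usage differed between cultures. It was measured as the effective number of segments, the number of equally used segments that would have the same Shannon entropy of read shares. At day 0 it was 55.0, 54.7 and 55.5, and the 10 most used segments held 39.9 to 40.5% of the kappa V reads in a library. Wild type TLR cultures stayed near this, at 49.7 to 52.4 on day 4, 49.5 to 51.5 on day 7 and 50.7 to 54.7 on day 10. Wild type BCR cultures were at 50.3 to 52.6, 47.3 to 49.6 and 45.4 to 47.2 on the same days. In LPS cultures at day 7 usage was narrower, with 32.8, 23.9 and 32.5 in dEx1A and 33.1, 41.1 and 37.4 in wild type. The 2 genotypes did not overlap there, and in dEx1A LPS replicate 2 the 10 most used segments held 65.8% of the kappa V reads. At day 4 of LPS culture the values were 41.7, 44.4 and 39.6 in dEx1A and 47.5, 50.9 and 49.1 in wild type. With 3 libraries against 3 the exact two-sided permutation test cannot give a p below 0.1. At day 7 dEx1A cells were also below wild type in TLR culture, at 45.4, 44.3 and 42.6 against 49.5, 51.5 and 51.0, and in BCR culture, at 43.9, 44.0 and 46.5 against 47.3, 49.6 and 49.4. At day 7 the dEx1A LPS libraries had 424267 to 612204 kappa V reads and the dEx1A BCR libraries 73607 to 157752. The part of read number in the effective number was not tested.

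**Figure D3:**
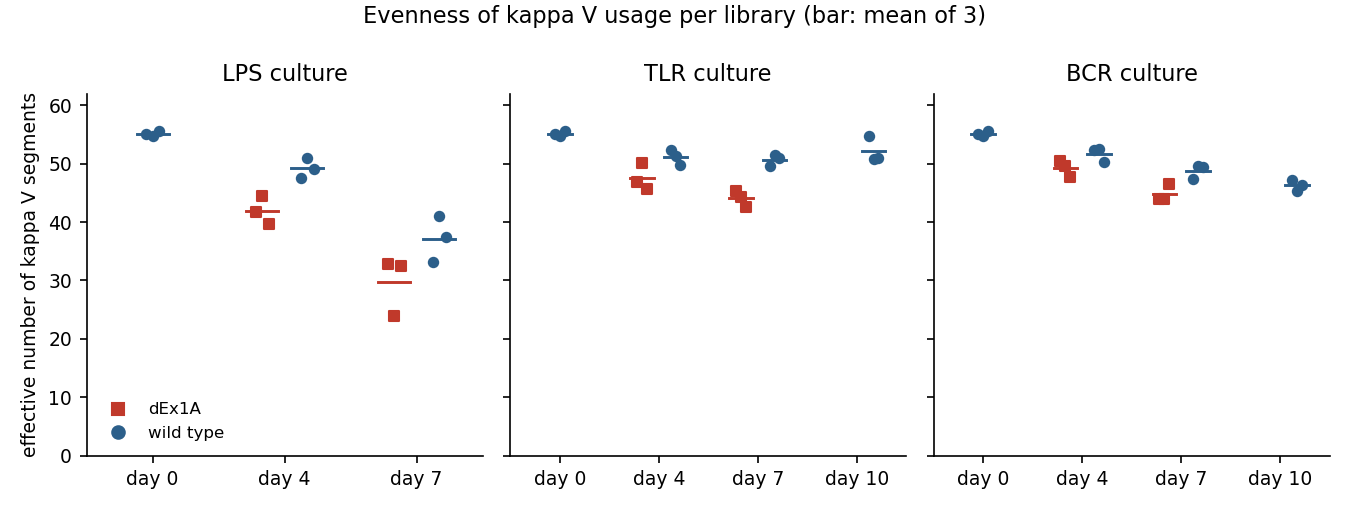
Effective number of kappa V segments per library by day and culture, with dEx1A squares left of wild type circles and a bar for the mean of 3. The day 0 libraries lie near 55.0, and the dEx1A LPS libraries of day 7 lie at 23.9 to 32.8, with replicate 2 the lowest of the 45.

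Igkv8-21 took a large share in LPS culture. Its share of kappa V reads was 0.806, 0.694 and 0.714% at day 0, 6.98, 5.09 and 5.96% at day 4 and 20.6, 10.1 and 16.99% at day 7. In dEx1A LPS cultures it was 5.82, 5.81 and 5.83% at day 4, within the wild type range, and 6.20, 10.3 and 7.63% at day 7, where 1 dEx1A library overlaps the wild type range. The level of Igkv8-21 was lower in dEx1A than in wild type LPS cultures at both days (-2.34, SE 0.30, adjusted p = 6.6e-07 at day 4, and -1.40, SE 0.30, adjusted p = 0.0019 at day 7). In TLR and BCR cultures its share went opposite ways with time. It was 1.89, 1.92 and 1.45% in TLR cultures at day 10 and 0.422, 0.154 and 0.252% in BCR cultures at day 10, and these do not overlap each other or the day 0 range.

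Igkv1-117 and Igkv1-110 together held a larger share in dEx1A than in wild type cells at day 7. In dEx1A LPS cultures at day 7 Igkv1-117 held 15.4, 24.2 and 14.5% of kappa V reads and Igkv1-110 held 13.9, 7.10 and 16.5%, against 6.79, 7.95 and 5.53% and 5.59, 5.25 and 8.03% in wild type LPS cultures. The replicate with the most Igkv1-117 had the least Igkv1-110, and their sum varied less, at 29.2, 31.3 and 31.0% in dEx1A and 12.4, 13.2 and 13.6% in wild type. The sum was 21.2, 21.4 and 23.7% in dEx1A and 13.1, 13.6 and 13.4% in wild type TLR cultures at day 7. In BCR cultures at day 7 it was 21.3, 19.5 and 19.99% in dEx1A and 17.2, 16.8 and 17.2% in wild type. The genotypes did not overlap in any of these 3 cultures at day 7. At day 4 the sum was 22.9, 17.1 and 22.6% in dEx1A and 14.7, 11.7 and 13.95% in wild type LPS cultures, and 16.2, 16.3 and 16.8% in dEx1A and 13.01, 13.2 and 12.7% in wild type TLR cultures. In BCR cultures at day 4 it overlapped, at 14.1, 13.8 and 15.8% in dEx1A and 13.4, 14.3 and 13.2% in wild type. Their levels did not pass the test in dEx1A less wild type LPS cultures at day 7 (0.95, SE 0.30, adjusted p = 0.055 for Igkv1-117, and 0.48, SE 0.35, adjusted p = 0.57 for Igkv1-110), and in dEx1A BCR cultures both levels fell with the rest (-2.93, SE 0.30, and -2.69, SE 0.35).

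Igkv10-96 moved the other way. It held 2.85, 2.44 and 2.19% of kappa V reads in dEx1A LPS cultures at day 7, against 5.71, 6.73 and 6.62% in wild type LPS cultures. In TLR cultures it held 4.32, 4.86 and 4.42% in dEx1A and 8.28, 7.14 and 7.04% in wild type. In BCR cultures it held 3.68, 4.30 and 2.81% in dEx1A and 6.30, 4.58 and 4.61% in wild type. Its level was lower in dEx1A in each (-1.80, -1.82 and -3.58, SE 0.25 each, adjusted p at most 3.7e-06). Igkv19-93 held less in every culture group than at day 0, where it had 3.91, 3.74 and 3.73%. The lowest values were 0.512, 0.477 and 0.772% in dEx1A LPS cultures at day 7, against 1.13, 2.95 and 2.23% in wild type LPS cultures, and its level there was lower by 2.21 (SE 0.31, adjusted p = 6.1e-06). Igkv1-135 overlapped between the genotypes at day 7 in LPS culture, at 3.81, 1.07 and 2.59% in dEx1A and 5.04, 2.48 and 3.26% in wild type.

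**Figure D4:**
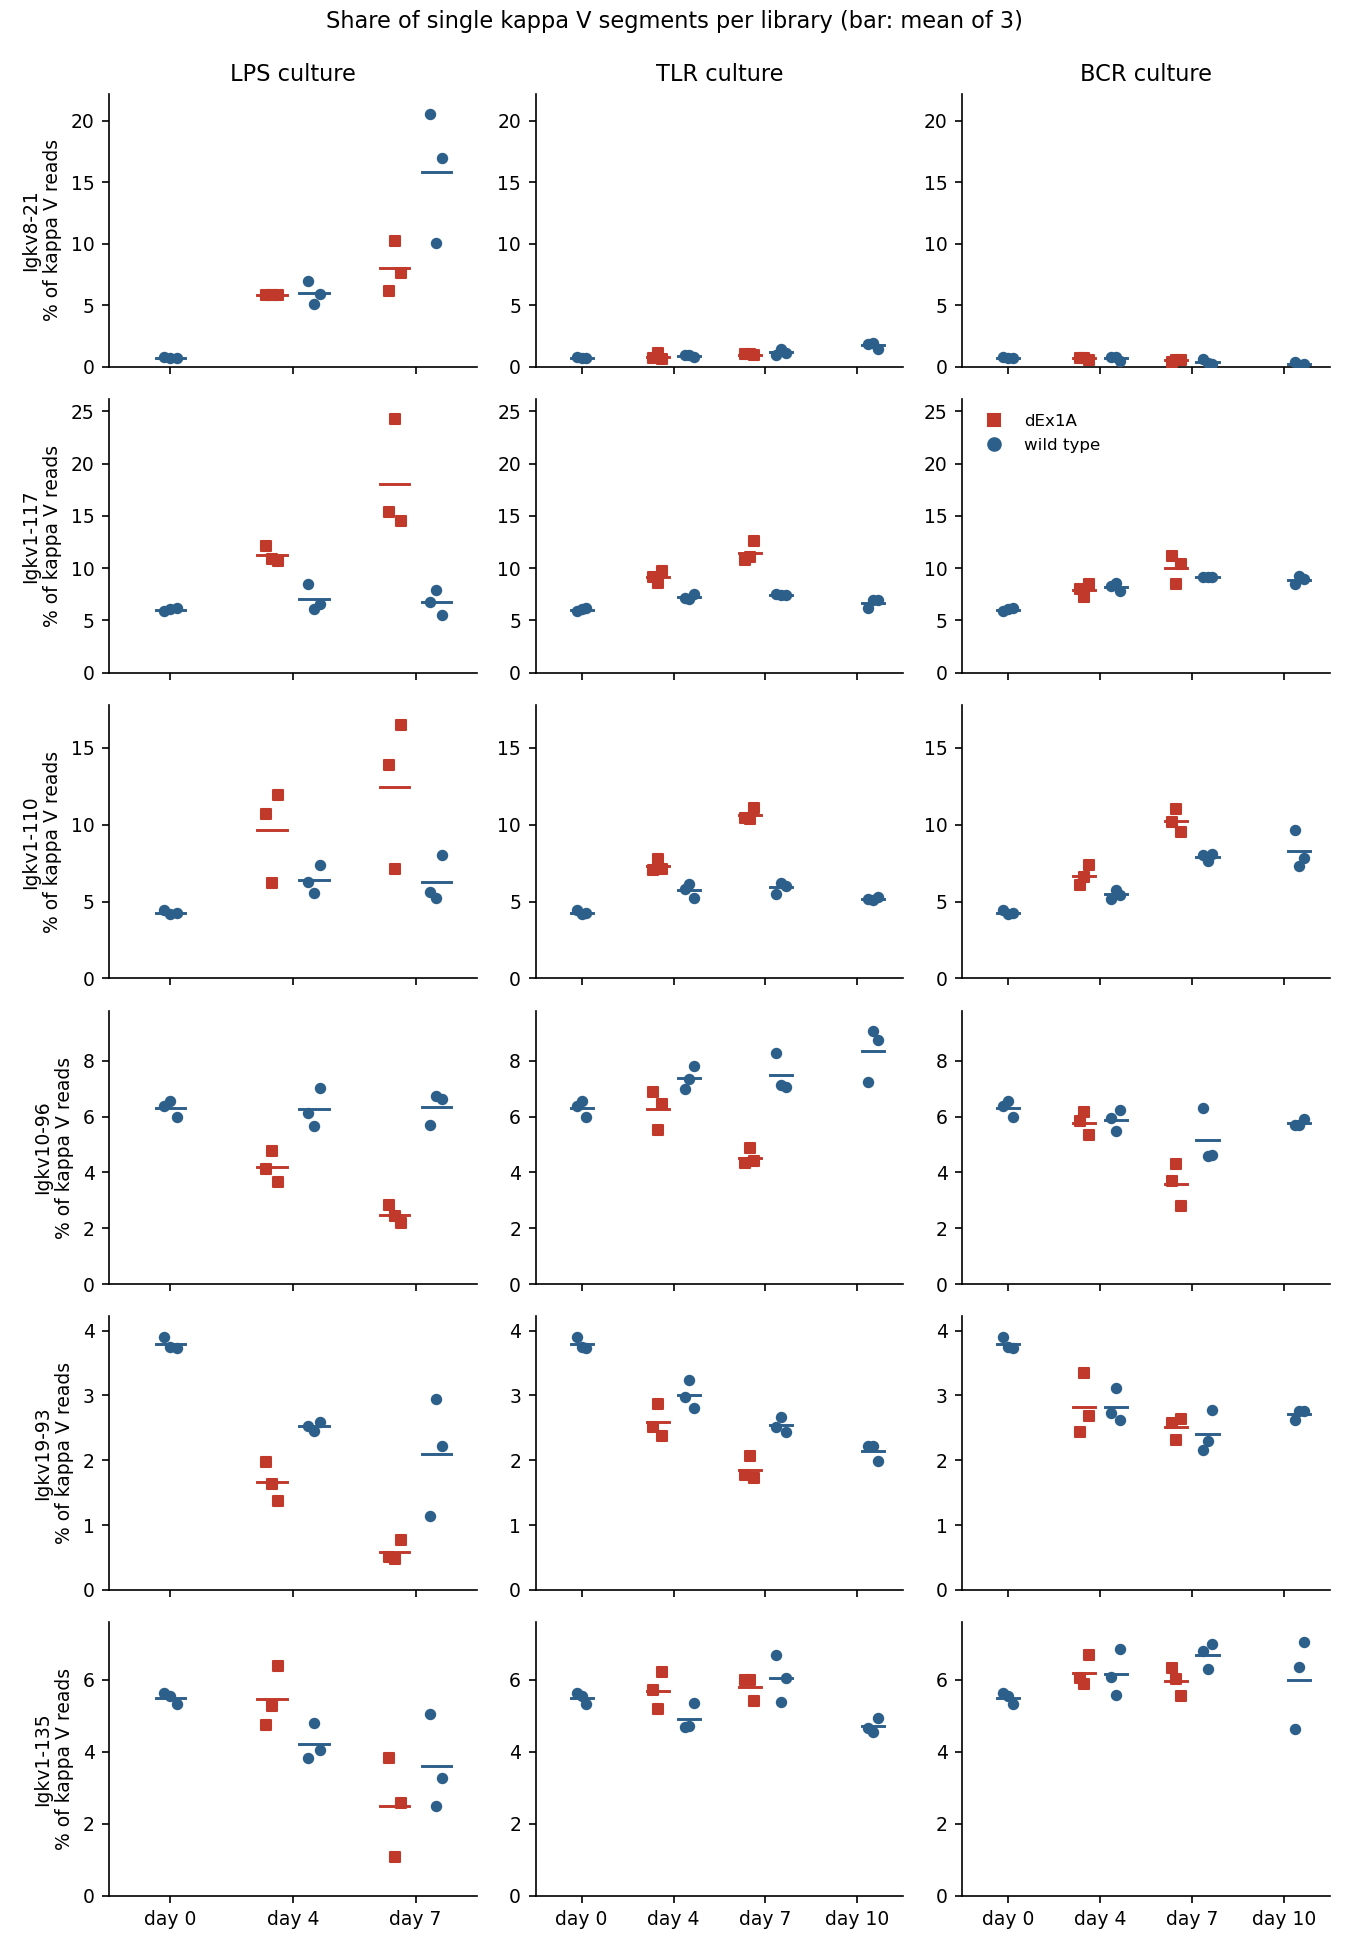
Share of kappa V reads held by Igkv8-21, Igkv1-117, Igkv1-110, Igkv10-96, Igkv19-93 and Igkv1-135 per library, by day and culture, with dEx1A squares left of wild type circles and a bar for the mean of 3. Igkv8-21 reaches 10.1 to 20.6% in wild type LPS cultures at day 7 and stays at or below 1.92% in TLR and BCR cultures, and Igkv10-96 lies lower in dEx1A than in wild type at day 7 of each culture.

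Between segments, usage was compared per base of V transcript. By the mean over the 15 groups the order was Igkv1-117 with 8.37%, Igkv1-110 with 7.00%, Igkv10-96 with 5.95%, Igkv1-135 with 5.02%, Igkv6-15 with 3.15%, Igkv9-120 with 2.99%, Igkv8-21 with 2.93%, Igkv5-43 with 2.88%, Igkv8-24 with 2.48% and Igkv19-93 with 2.47% of the length-corrected total. Neighbours in this order such as Igkv9-120 and Igkv8-21 differ by far less than either varies between groups, since Igkv8-21 had group means of its read share between 0.276 and 15.9%, and Igkv9-120 between 1.06 and 3.96%. At the other end, Igkv1-131 never had over 8 reads in a library and fell just outside the filter in the wild type table. The segment just inside it, Igkv1-35, had at most 43 reads.

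Families followed these leading members. Igkv1, with 10 segments, held 34.9 ± 0.587% of kappa V reads in dEx1A LPS cultures at day 7 and 17.3 ± 1.03% in wild type LPS cultures, and 17.2 ± 0.105% at day 0 (SD, n = 3 each). Igkv8, also with 10, held 18.1 ± 2.28% in dEx1A and 22.4 ± 5.46% in wild type LPS cultures at day 7 and 7.67 ± 0.222% at day 0. Igkv3, with 9 segments, held 1.54 ± 0.531% in dEx1A and 5.26 ± 0.131% in wild type LPS cultures at day 7. Igkv4, the family with the most segments, 26, held 13.4 ± 2.09% in dEx1A and 10.7 ± 2.13% in wild type LPS cultures at day 7 and 12.2 ± 0.136% at day 0, and its group means ran from 9.59 to 15.8%.

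The segments were then grouped by the length of germline CDR1, which was found in 98 of 100. It had 10 to 12 codons in 65 segments and 15 to 17 in 33. The long class held 56.3, 58.6 and 58.3% of kappa V reads in dEx1A LPS cultures at day 7 and 53.2, 40.9 and 47.3% in wild type LPS cultures, against 32.8, 32.5 and 33.2% at day 0. In TLR cultures at day 7 it held 45.0, 44.2 and 47.0% in dEx1A and 35.7, 37.3 and 36.8% in wild type. In BCR cultures at day 7 it held 50.4, 40.4 and 45.9% in dEx1A and 40.9, 42.7 and 42.9% in wild type, which overlap. The class was made of different lengths in the 2 genotypes. Segments with 16 codons, 13 in number and including Igkv1-117 and Igkv1-110, held 38.1% in dEx1A and 19.4% in wild type LPS cultures at day 7. Segments with 17 codons, 11 in number and including Igkv8-21, held 18.1% in dEx1A and 22.4% in wild type. The 40 segments with 11 codons fell to 28.5% in dEx1A, against 42.2% in wild type LPS cultures and 54.8% at day 0. These shares are descriptions, since a few segments carry each class.

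**Figure D5:**
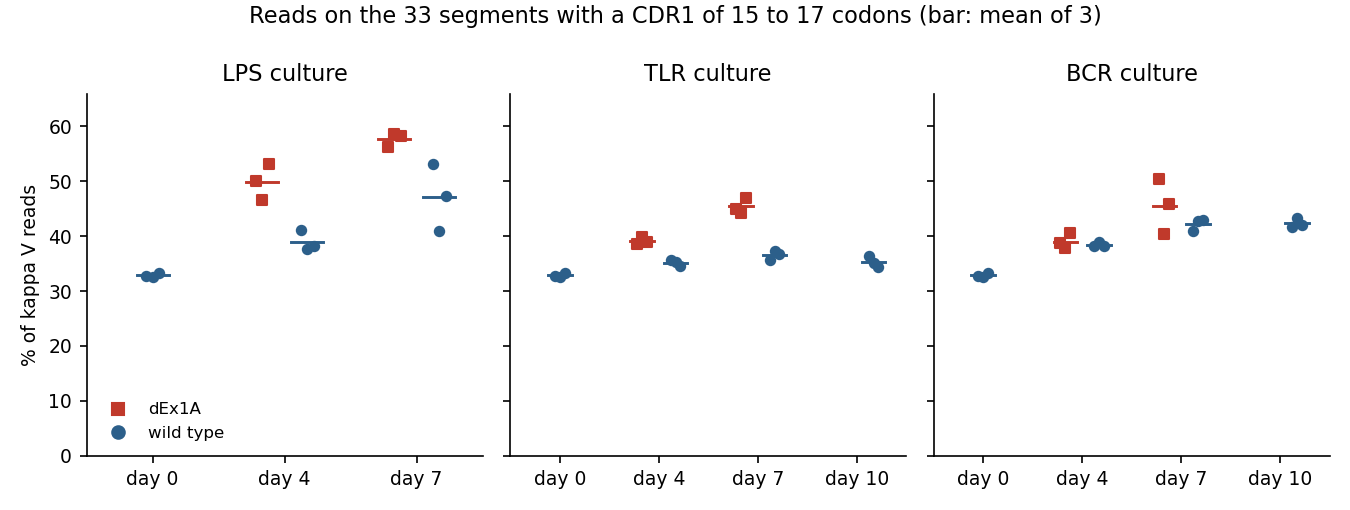
Share of kappa V reads on the 33 segments with a germline CDR1 of 15 to 17 codons, per library, by day and culture, with dEx1A squares left of wild type circles and a bar for the mean of 3. The day 0 libraries lie at 32.5 to 33.2% and the dEx1A LPS libraries of day 7 at 56.3 to 58.6%.

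Position in the locus was set beside usage. Across the 100 segments, Spearman's rho between the mean share and the distance from Igkj1 lay between -0.03 and 0.11 in the 15 groups. The segments share libraries and some share reads, so this is given as a description. Summed over stretches of the locus, shares did differ between groups. The 20 segments farthest from Igkj1, at 2400 to 3200 kb, which include Igkv1-117 and Igkv1-110, held 43.7 to 45.3% in dEx1A and 24.8 to 26.1% in wild type LPS cultures at day 7, against 30.8 to 31.3% at day 0. The 33 nearest, within 800 kb, which include Igkv8-21, held 23.0 to 25.8% in dEx1A and 33.2 to 43.4% in wild type LPS cultures at day 7, against 26.1 to 27.6% at day 0. Segments on the plus strand, in the orientation of Igkj, held 51.5, 50.7 and 48.9% of kappa V reads in dEx1A LPS cultures at day 7, against 35.9, 38.4 and 36.8% in wild type LPS cultures and 45.4, 45.2 and 45.9% at day 0. Igkv1-117 and Igkv1-110 lie on the plus strand and Igkv8-21 on the minus strand.

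The other light chain genes moved partly with the V segments. Igkc, the kappa constant gene, and Iglc1, Iglc2 and Iglc3, the lambda constant genes, were higher at day 7 than at day 4 in wild type TLR cultures, 4 of 4, by 5.12 (SE 0.36), 5.04 (SE 0.28), 4.15 (SE 0.19) and 3.67 (SE 0.36). In dEx1A less wild type LPS cultures at day 7 the 3 lambda genes were higher, by 1.59 (SE 0.35), 1.70 (SE 0.26) and 1.56 (SE 0.36), while Igkc differed by -0.43 (SE 0.34, adjusted p = 0.63). In the same comparison 4 kappa V segments were higher and 25 lower. In dEx1A less wild type BCR cultures at day 7 all 4 constant genes were lower, Igkc by 2.37 (SE 0.34). In TLR cultures at day 7 none of the 4 passed the test, with Igkc at -0.28 (SE 0.34, adjusted p = 0.50), although 53 V segments were lower.

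Of 11 transcription factors that act on the kappa locus or in B cell fate, 3 were higher and 1 was lower at day 7 than at day 4 in wild type TLR cultures, where 17.7% of all genes were higher and 18.6% lower. They were Irf4, which drives plasma cell fate (1.83, SE 0.30), the octamer factor Pou2f2 (0.90, SE 0.18), its coactivator Pou2af1 (0.77, SE 0.26) and, lower, Nfkb1 (-2.20, SE 0.15). In dEx1A less wild type BCR cultures at day 7, 3 were higher and 6 lower, beside 25.8% and 25.0% of all genes, with Irf4 lower by 1.20 (SE 0.18) and Pou2af1 by 0.99 (SE 0.15). In LPS cultures at day 7, 1 of 11 was higher, beside 3.30% of all genes, Irf4 by 0.84 (SE 0.18). Rag1, a recombinase subunit needed to join V to J, read 6.37 or more at day 0 and averaged 3.24 ± 0.346 in dEx1A and 5.36 ± 0.370 in wild type LPS cultures at day 7 (SD, n = 3 each; difference for dEx1A less wild type -2.12, SE 0.22, adjusted p = 1.3e-08). The dEx1A mean lies close to the floor of 3.04. The 3 recombination genes listed, Rag1 and Dntt among them, summed to 0.06 to 0.13 RPM in dEx1A and 1.20 to 1.92 RPM in wild type. Dntt did not pass the limma test (-0.61, SE 0.28, adjusted p = 0.23). Among the 18851 genes ranked, those most like the summed kappa V level over the 15 group means were Creb3l2, Ssr4 and Itm2b, with a Pearson r of 0.98 each. Igkc also followed that level. In wild type TLR cultures it averaged 16.33, 21.45 and 22.77 at days 4, 7 and 10, beside summed levels of 15.66, 21.02 and 22.16. No r is given here for Igkc, so these 3 genes are not shown to be closer than it.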

How the data were processed

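RNA was sequenced as single reads of 76 bases from TruSeq Stranded Total RNA libraries, per the labels' protocols. The authors list DESeq2 1.22.2, RSEM 1.3.0 and STAR 2.6.0c among their tools, and GRCm38.p6 and mm10 among the builds, in the submitters' processing notes, which assign them no role. The deposited values are log2 levels from a variance-stabilising transformation of RSEM gene estimates, per the file names, in 2 tables of 21 and 39 libraries, of which 15 are in both with identical values. The transformation was inverted, taking 3.045 as the unrounded value of a count of 0, to recover reads per gene. Of the values under 20 reads, 95.4 to 100% in a library lay within 0.1 of a whole number, where chance gives 20%. RSEM divides reads between similar segments, and reads of mutated V regions may be lost.

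Genes at least 1 log2 unit above the floor in at least 3 libraries were kept, which left 19497 and 20331 genes and 99 and 100 of the segments. Cnksr3, with 1 value below that of a count of 0, was not used. Group means over all libraries of a table were fitted with limma 3.58.1 in R 4.3.3, with a trended empirical Bayes spread, and two-sided p-values were Benjamini-Hochberg adjusted over all genes kept. Because the values are on the log2 scale, count models were not the main test. Differences of low genes are understated on this scale. The wild type TLR and BCR steps and TLR less BCR used the first table, and the LPS, dEx1A and genotype comparisons the second. The fit was tested on simulated counts. Symbols, positions and sequences came from GENCODE M21 (GRCm38), matched for 100 of 100 segments by Ensembl identifier. Named segments were the 10 most used, up to 3 higher and 3 lower per comparison with no overlap between groups, those just inside and outside the filter and those never over 10 reads. No segment held at least 10% of a library's kappa V reads and at least 3 times the median share of the other 2 libraries of its group. The segments, the gene lists and these rules were chosen with earlier results of these data known. Alternatives were no filter, the groups compared alone, a replicate block, scaling to total or non-immunoglobulin reads with a pseudocount of 0.5 RPM (reads scaled to the library total), voom, a GC correction and leaving out each library. Replicate numbers were taken to pair libraries where all 3 same-numbered correlations of deviations over genes exceeded 0.1, which held in 3 of 13 comparisons, TLR less BCR at days 4 and 10 and the dEx1A LPS step (lowest 0.135, 0.146 and 0.182). The block within the groups compared was added after seeing the data.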

Additional observations from a re-analysis of the deposited data

Results flagged for a closer look

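The change of the genotype difference, dEx1A less wild type, between day 4 and day 7 was tested as an interaction within the same fit. Depth and GC offset differ between the groups of each culture, and their part was not tested beyond a GC correction. In BCR culture 70 of 100 segments changed, each lower, where 17.5% of all genes were lower and 16.4% higher. The largest were Igkv7-33 (-4.26, SE 0.90), Igkv8-34 (-3.82, SE 1.14) and Igkv9-123 (-3.72, SE 0.80). In LPS culture 31 changed, each higher, where 3.30% of all genes were higher and 2.18% lower. They were led by Igkv8-34 (7.07, SE 1.14), Igkv1-133 (4.05, SE 1.11) and Igkv1-122 (4.04, SE 1.15). In TLR culture 32 changed, each lower, where 25.1% of all genes were lower and 24.3% higher. The TLR count lies near that share, and below it with a GC correction (18, of which 17 lower) or scaled to total reads (19, of which 18 lower), so it is not a result about the segments. The largest included Igkv14-130 (-2.31), Igkv4-90 (-2.19) and Igkv13-84 (-2.13). Igkv8-34 changed in opposite directions in BCR and LPS culture, on few reads in some groups. It had 83 reads in dEx1A LPS cultures at day 4 and 358 in wild type LPS cultures at day 7. In dEx1A BCR cultures at day 7 it had 257.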

How the results depend on the processing

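Calls are counts of segments at an adjusted p below 0.05. With the groups compared fitted alone they became 16 for the LPS and 77 for the TLR change of genotype difference, 0 for dEx1A less wild type BCR day 4 and 6 for LPS day 7, 0 for wild type BCR day 10 less 7 and 15 for day 4 less 0, 61 and 29 for the same TLR steps, and 0 and 9 for TLR less BCR at days 10 and 4. Scaled to total reads they became 19 for the TLR change, 6 for dEx1A less wild type BCR day 4, 6 for BCR day 4 less 0, 17 and 13 for TLR day 10 less 7 and day 4 less 0, and 6 and 21 for TLR less BCR at days 4 and 7. Scaled to reads outside immunoglobulin genes they became 5 for dEx1A less wild type BCR day 4 and 22 for TLR less BCR day 7. With a GC correction they became 18 for the TLR change, 5 for dEx1A less wild type BCR day 4, 8 for BCR day 4 less 0 and 5 for TLR less BCR day 4. With voom BCR day 4 less 0 became 1. A replicate block gave 7 for dEx1A less wild type BCR day 4, and with the groups compared alone 49 for the dEx1A LPS step and 47 and 0 for TLR less BCR at days 4 and 10. It changed no other count by over 1.5 times. Leaving out 1 library, the calls ranged over 21 to 34 for the TLR change, 1 to 4 for dEx1A less wild type BCR day 4, 18 to 65 for BCR day 10 less 7, 0 to 2 for BCR day 4 less 0, 22 to 45 for LPS day 7 less 4, 11 to 26 for TLR day 10 less 7, 1 to 7 for TLR day 4 less 0, and 38 to 93, 0 to 3 and 9 to 27 for TLR less BCR at days 10, 4 and 7. The cause was not tested. The summed level scaled to total reads differed by 3.12 for the dEx1A LPS and 3.62 for the dEx1A TLR step, 4.43 for wild type BCR day 7 less 4, 2.87 and 1.31 for wild type LPS day 4 less 0 and day 7 less 4, 0.56 and 4.48 for wild type TLR day 10 less 7 and day 7 less 4, and 0.68 for TLR less BCR day 7 (0.91 scaled to non-immunoglobulin reads). For dEx1A less wild type TLR day 4 the difference of 0.11 became -0.0204 scaled to total and -0.0303 scaled to non-immunoglobulin reads, and -0.0446 to 0.235 without 1 library. For wild type BCR day 4 less 0 it ran from -0.31 to 0.11 without 1 library. The effective number and the leading share moved by less than 1 SD under each alternative run. Segments with few reads and pairs with near-identical exons limit what single segments show.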
